A study of Saccharomyces cerevisiae W303 with 28 samples.

Results

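The stretch described here is the left part of Saccharomyces cerevisiae chromosome 5 around a galactose-induced DNA double-strand break. It holds the 200 windows of 1 kb that lie within 100 kb of the window at 119001 to 120000, in the coordinates of the deposited files, of 12447 windows in the genome. That window was taken as the break position from an earlier look at the loss of extract DNA in these libraries, so the loss of DNA there is a description and was not tested. A position is given below as its distance in kb from the break window, left for lower and right for higher coordinates. The build was not given in the sources used here, so no gene or centromere was placed on the stretch and no sequence is printed.

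The measured protein was Scc1, tagged with HA or with Pk, in W303 strains collected 4 h after galactose addition. Each immunoprecipitate (IP) came with the whole-cell extract of the same culture label, which makes 28 libraries from 14 samples. The HA strains treated with nocodazole were the wild type, rad17, pds5-AID and rad17 pds5-AID, each with the break and in 2 libraries, and a wild type with an uncleavable site in 1 library (2% galactose). In the uncleavable HA strain the treatment label still speaks of break induction, and the title was followed. An untagged wild type with the break and nocodazole went through the HA precipitation once. The Pk strains were sampled once each: the wild type without a break and with nocodazole, the wild type and rad17 with the break and nocodazole, and the wild type with the break and no nocodazole. No mutant was measured without a break, pds5-AID is a degron allele for which the labels mention no auxin, and nothing states that replicate libraries came from separate cultures, so the p-values measure the spread between libraries, which may be technical.

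Scc1 is the kleisin subunit of cohesin, the ring complex that holds sister chromatids together and extrudes chromatin loops. On yeast chromosome arms cohesin collects in narrow peaks, typically where transcription converges, separated by valleys, and it is loaded again around a double-strand break in cells arrested before anaphase. Rad17 is a subunit of the checkpoint clamp (the 9-1-1 complex), which is loaded at resected DNA ends and helps to activate the Mec1 kinase. Pds5 binds Scc1, protects cohesion, and takes part in the release of cohesin from chromatin together with Wapl.

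The IP values were calibrated by the authors against Candida glabrata chromatin. A typical HA window held 27.2 to 87.4 units of the smallest step of its library, a step that is taken here as 1 read; the Pk library without a break held 9.90 and the Pk library without nocodazole 2.41, so single windows of that last library carry little information. An over-extract level is the calibrated IP divided by the extract coverage relative to that extract's own genome median. The genome level of the HA libraries was 3.13 to 8.92 times that of the untagged library, which itself showed no excess on the stretch (mean IP 1.00 times that of the other windows). The stretch exceeded the other windows in every tagged library, by 1.60 and 1.67 times in the HA wild type with the break, 1.31 times without a break, 1.34 and 1.36 times in rad17, 2.04 and 2.13 times in pds5-AID, and 1.41 and 1.39 times in rad17 pds5-AID. The extracts of both libraries without a break, and that of wild-type replicate 2, were uneven along the genome (SD of log2 coverage 0.801, 0.603 and 0.493, against 0.235 to 0.286 in the other 11), with low coverage at Scc1 peaks. In these libraries the median peak over the median valley of the stretch was 7.52, 8.35 and 4.92 in the IP alone. Over extract it was 9.32, 9.32 and 5.10. Among the other libraries this ratio rose in some and fell in others, and the part of the uneven extracts was not tested. The counts below are therefore also given for the IP alone.

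The stretch carried a row of narrow Scc1 peaks. Their positions were set on the mean of the 3 Pk IP profiles with nocodazole, of which 1 is from the strain without a break and 2 (wild type and rad17) carry the break, and which share no library with the HA comparisons. On this mean 17 peaks and 16 valleys of 3 windows each were found within the stretch, of 1240 and 1212 in the genome. The peaks lay 4 to 29 kb apart, with a median spacing of 10.5 kb. On the left they stood 10, 16, 22, 39, 57, 71, 83, 90 and 94 kb from the break, and on the right 19, 29, 33, 39, 47, 70, 88 and 99 kb. The widest gap, 29 kb, is the one across the break. A peak seen 3 kb left without a break, described below, is not among the 17. The valleys lay 12, 18, 34, 50, 63, 77, 86, 92 and 97 kb to the left and 4, 22, 34, 41, 59, 73 and 96 kb to the right. Some neighbours share a window: the peak and valley at 33 and 34 kb right are the top and the shoulder of 1 structure, and the valley 12 kb left shares a window with the peak 10 kb left. The last window of the peak 99 kb right lies 1 window outside the stretch.

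The tallest structure in the absence of a break was a cluster of peaks on the right. Its position relative to the centromere was not examined. The peak 47 kb right (165001 to 168000) had an over-extract level of 384 in the HA library without a break and 246 in the Pk library without a break. At 29 kb right (147001 to 150000) these levels were 294 and 178, and at 33 kb right (151001 to 154000) they were 140.5 and 123. These 3 peaks ranked highest of the 17 in both libraries, also in the IP alone, where the peak 29 kb right came first, with 187 against 176 at 47 kb right in HA and 131.4 against 130.9 in Pk. The left side was lower: its tallest peak reached 105 in HA (16 kb left) and 82.5 in Pk (90 kb left). The running mean of the IP over 21 windows had its maximum on all of chromosome 5 within this cluster, 37 kb right of the break (156001 to 157000), in both libraries without a break. With the break it lay there in both wild-type, both rad17 and both double mutant HA libraries, and 23 kb right in both pds5-AID libraries. Over extract the maximum stayed at 37 kb right without a break and in both rad17 HA libraries. It lay 13 kb left and 23 kb right in the HA wild type with the break. In pds5-AID it lay 7 and 6 kb left, and in the double mutant 24 and 26 kb right.

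**Figure D1:**
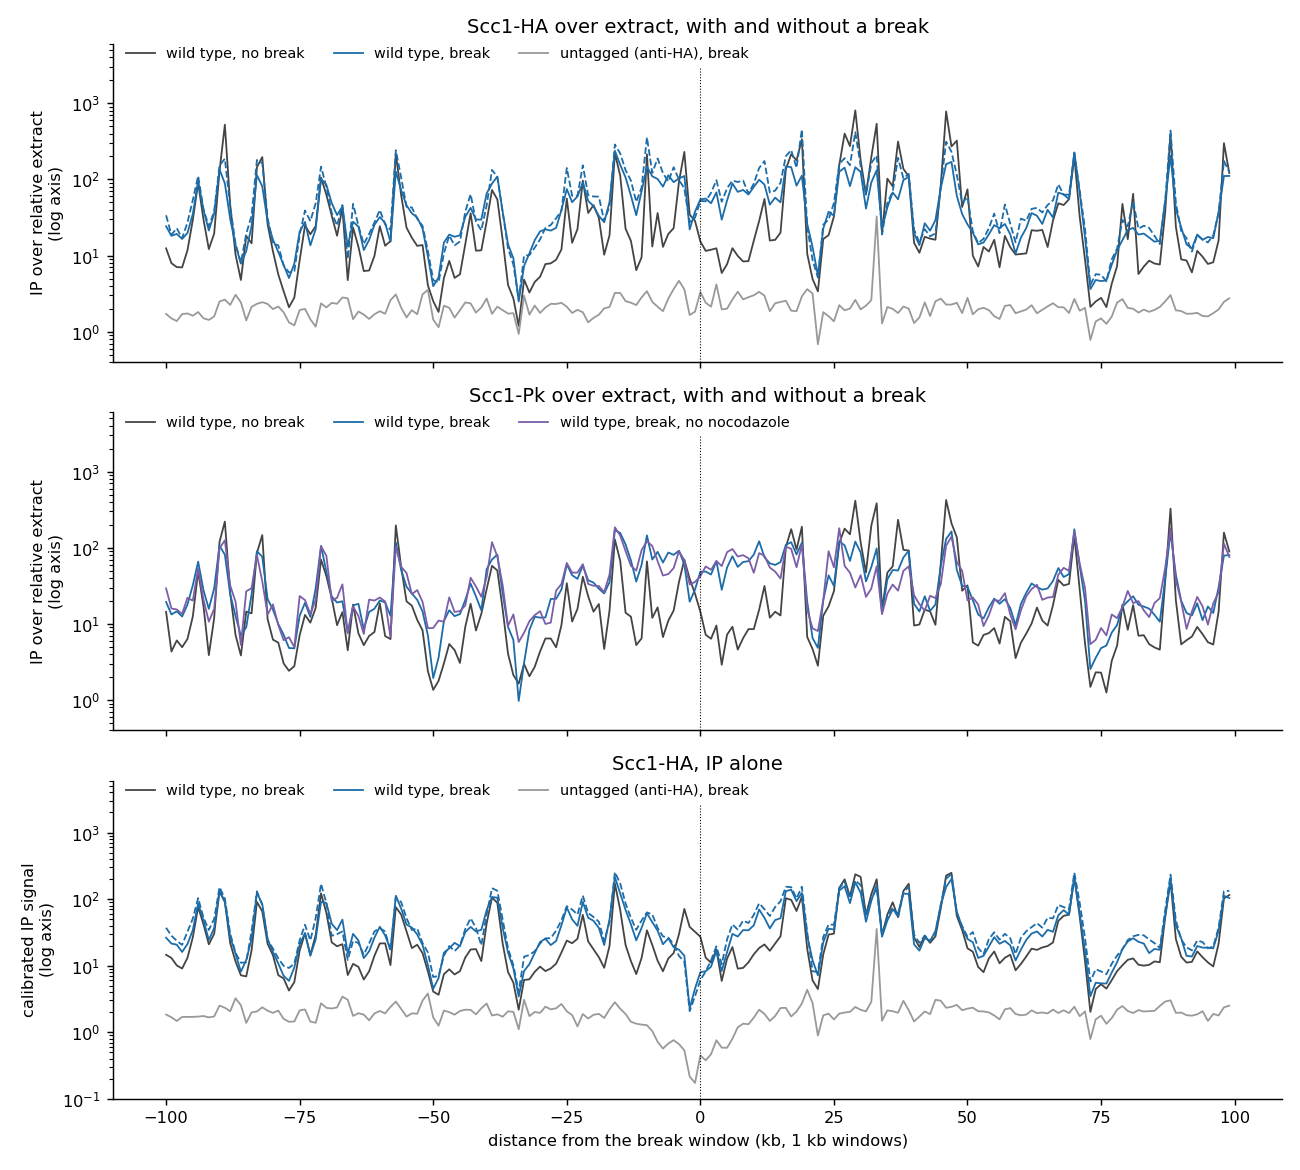
Profiles of the 200 windows by distance from the break window (kb), with the over-extract level for HA and Pk and the IP alone for HA on the vertical axes, 1 line per library. Over extract, both wild-type HA libraries with the break run above the library without a break between 5 and 15 kb on the right, and below it on its tallest peaks 29 to 47 kb right. In the IP alone they run far below it from 3 kb left to the break window, at 14.1 and 11.5 against 71.2 at 3 kb left.

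With a break, the extract itself lost DNA around position 0. All 12 extracts from strains with a break lay under 50% of their own genome median in every window from 109001 to 127000, which is 18 windows from 10 kb left to 7 kb right, and under 25% in the 3 windows from 117001 to 120000. At 1 kb left the 12 relative extracts ranged from 0.0521 to 0.179 (median 0.114), against 1.13 and 1.12 in the HA and Pk extracts without a break. The mutants lost extract over the same windows: at the valley 4 kb right the relative extract was 0.276 and 0.244 in the wild type, 0.241 and 0.189 in rad17, 0.295 and 0.165 in pds5-AID and 0.323 and 0.264 in the double mutant.

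The 4 windows from 115001 up to the break window (4 to 1 kb left) were left out of all tests, because their mean relative extract over the 9 HA libraries fell under 0.25, so 196 of the 200 windows were tested. A further 7 tested windows between 6 kb left and 4 kb right passed that limit through the extract without a break alone; of these 7, 6 fell in rad17, none was called in pds5-AID, all fell in both comparisons of the double mutant, and 1 passed for the interaction. Among the 4 windows left out stood a peak of the strains without a break: at 3 kb left (116001 to 117000) the IP was 71.2 in HA and 48.0 in Pk without a break. With the break the IP there was 14.1 and 11.5 in the wild type, 6.25 and 6.08 in rad17, 15.6 and 13.8 in pds5-AID and 3.87 and 3.35 in the double mutant. At 2 kb left it was 38.2 and 39.2 without a break in HA and Pk, against 2.29 and 2.08 in the HA wild type with it. In the break window itself the IP was 27.1 without a break and 7.97 and 6.07 with it in the HA wild type. This peak lost most of its IP, while its extract lost most of its coverage at the same time, and IP per remaining DNA was not tested in the 4 windows.

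**Figure D2:**
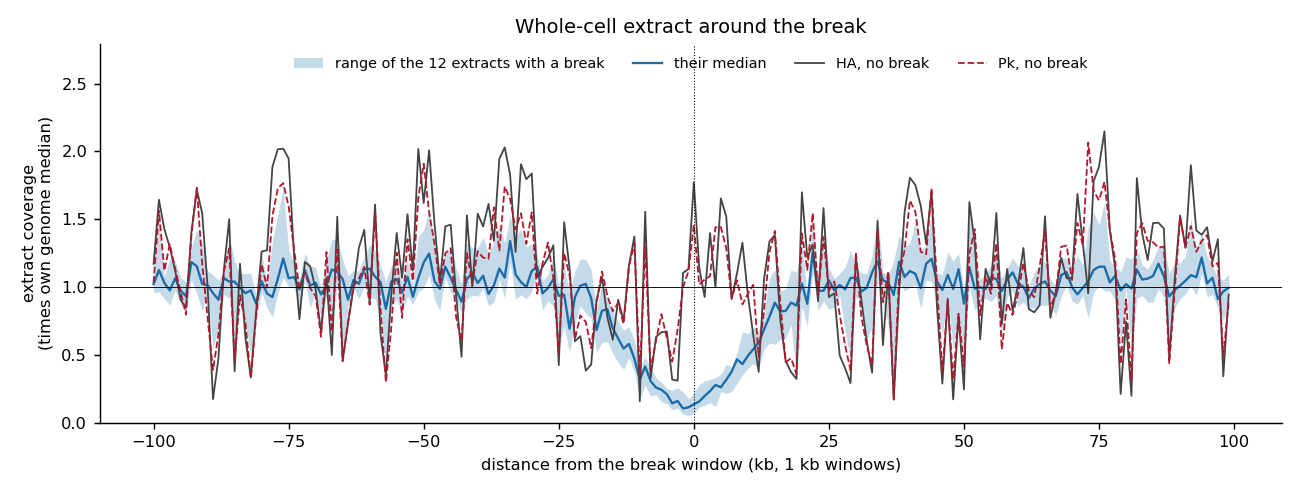
Extract coverage relative to each library's own genome median (vertical axis) by distance from the break window in kb (horizontal axis), for the 12 extracts with a break and the 2 without. Every extract with a break falls below 0.5 from 10 kb left to 7 kb right, while the HA and Pk extracts without a break stand at 0.5 or above in 14 and 15 of these 18 windows.

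The comparison of the HA wild type with and without a break asks where Scc1 changes around the cut. Scc1 over extract rose within about 15 kb on both sides of the break and in many windows farther to the left, and over the whole stretch the median change was larger at valleys than at peaks. The over-extract level rose in 59 and fell in 8 of the 196 windows (limma, adjusted p under 0.05 over 11638 windows), where 1.18% of all windows of the genome rose and 3.59% fell. Over the stretch the median log2 change was 0.87, against 0.18 over all windows. With the IP alone 30 windows rose and 1 fell, against 0.369% and 0.043% of all windows, and the median change was 0.70. Relative to each library's own median 100 rose and 12 fell, against 5.96% and 12.1% of all windows. All 7 windows that passed the extract limit only through the library without a break are among the 59, and none of them rose in the IP alone. The calls here and below rest on a spread that limma shared across all windows. With each window's own spread, over 4 residual degrees of freedom, no window of the stretch passed in this comparison, for rad17, for pds5-AID or for the double mutant against pds5-AID, with 86, 61, 17 and 148 at an unadjusted p under 0.05, and 10 passed for the double mutant against rad17.

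Next to the break the rise ran as 1 block on each side. On the left it covered 11 windows between 101001 and 115000 (5 to 18 kb) and on the right 15 windows between 119001 and 135000 (0 to 15 kb). These blocks hold all 7 windows that passed the extract limit only through the library without a break. The valley 12 kb left (106001 to 109000) had an over-extract level of 9.82 without a break and of 53.6 and 73.5 with it, a rise of 2.68 ± 0.35 (log2 ± SE, limma adjusted p = 3.2e-11). Its IP alone was 10.8 without and 34.3 and 44.9 with the break, a rise of 1.87 (limma adjusted p = 3.5e-05). Both libraries with the break lay well above the library without it, in a place that was a valley on the unbroken chromosome.

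The peak 10 kb left (108001 to 111000) was the lowest of the 17 peaks without a break, at 21.9 over extract, and stood at 106 and 134 with it, a rise of 2.44 ± 0.35 (limma adjusted p = 2.9e-09). Its IP alone was 22.5 against 47.8 and 56.5, a difference of 1.21 that did not pass (limma adjusted p = 0.0986). The neighbouring peak 16 kb left (102001 to 105000), the tallest on the left without a break, was at 105 without and 144 and 175 with the break, and did not pass (0.59, limma adjusted p = 0.54). Both libraries with the break lay above the library without it at all 3 of these places.

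On the right the single valley next to the break, 4 kb right (122001 to 125000), stood at 8.91 over extract without and at 49.4 and 75.0 with the break, a rise of 2.77 ± 0.35 (limma adjusted p = 7.4e-12). Its IP alone was 12.0 without and 13.7 and 18.3 with the break, a difference of 0.39 that did not pass (limma adjusted p = 1.00). The rise over extract at this valley therefore lies almost wholly in the divisor, which was 1.35 without and 0.276 and 0.244 with the break. The windows of this valley up to 4 kb right passed the extract limit only through the library without a break, which is a side of this comparison. Farther out the IP itself was higher: in the window 8 kb right (127001 to 128000) the over-extract level went from 8.38 to 72.7 and 96.8, the largest rise on the right (3.18 ± 0.39, limma adjusted p = 4.3e-12), and the IP alone from 9.25 to 34.3 and 47.6 (2.06). The largest rise on the left was in the window 9 kb left (110001 to 111000), from 13.1 to 109.9 and 122 over extract (3.01 ± 0.39, limma adjusted p = 7.3e-11). In the break window the IP alone fell by 1.85 (limma adjusted p = 9.7e-05) although the over-extract level was in the block that rose.

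Beyond 15 kb the sides differed in their counts. From 16 to 50 kb left, 20 of 35 windows rose over extract and none fell, with a median of 1.27, and 12 rose in the IP alone (median 1.06). From 16 to 50 kb right, where the tallest peaks stand, 1 of 35 rose and 7 fell over extract (median -0.14), and none changed in the IP alone (median 0.02). From 51 to 100 kb, 7 of 50 rose and 1 fell on the left (median 0.69) and 7 of 49 rose on the right (median 0.86), against 1 window on each side in the IP alone (medians 0.56 and 0.71). The difference between the sides was not tested.

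The falls lay on tall peaks and went with the uneven extracts. In the window 89 kb left (30001 to 31000) the over-extract level was 523 without and 88.4 and 187 with the break (-1.76 ± 0.39, limma adjusted p = 0.00088), while the IP alone was 91.5 without and 89.6 and 102 with it, a difference of 0.06, and the extract without a break stood at 0.175. The window 48 kb right (167001 to 168000) had 323 without and 60.8 and 114 with the break over extract (-1.68 ± 0.39, limma adjusted p = 0.0018), an IP of 55.7 against 65.1 and 60.9, a difference of 0.18, and an extract of 0.173 without a break. With the extract smoothed over 11 windows the difference at 89 kb left was 0.21. The peak 47 kb right, the tallest over extract, had an IP of 176 without and of 139 and 167 with the break and did not pass in the IP alone or over extract (-0.21 and -1.16, limma adjusted p = 0.065 over extract).

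Distant valleys gave a few more calls. The valley 97 kb left (21001 to 24000) was at 8.40 without and 18.6 and 22.2 with the break over extract (1.27 ± 0.35, limma adjusted p = 0.042). The valley 77 kb left (41001 to 44000) was at 2.75 without and 6.77 and 6.49 with the break (1.27 ± 0.35, limma adjusted p = 0.042). Neither passed in the IP alone (1.04 and 0.66) or with the smoothed extract (1.24 and 0.92, limma adjusted p = 0.051 and 0.43). Of all peaks 1 of 17 rose, the peak 10 kb left, and of all valleys 4 of 16 rose, where 0.245% of the 2452 peaks and valleys of the genome rose and 0.571% fell. Here and below, such genome shares are for both kinds together. In the IP alone the valleys 12 and 18 kb left rose and no peak did, against 0.122%, with the valley 18 kb left (100001 to 103000) at an IP of 14.2 without and 35.7 and 38.2 with the break. Relative to library medians 13 valleys and 3 peaks rose and 1 valley and 3 peaks fell, against 6.24% and 9.46% of the genome's peaks and valleys. Median changes were 0.23 at peaks and 1.15 at valleys over extract, and 0.27 and 0.76 in the IP alone.

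On the stretch, peaks and valleys lay closer together in the libraries with a break than in both libraries without one. The rest of the genome was not examined for this, so the difference cannot be tied to the stretch. The median peak divided by the median valley was 9.32 in both the HA and the Pk library without a break, 4.83 and 5.10 in the HA wild type with it and 4.59 in the Pk wild type with it. These Pk libraries also set the positions of the peaks and valleys, so their ratios are not independent of that choice. In the IP alone the same ratio was 7.52 and 8.35 without and 5.08, 4.92 and 4.47 with the break, so the libraries with and without a break were separated on both scales, while the order within each of them changed. Windows more than 15 kb from the break were also sorted by their over-extract level in the Pk library without a break, which the HA comparison does not use. In 4 classes from the lowest to the highest level, 17 of 43, 14 of 42, 4 of 42 and 0 of 42 windows rose in HA, and the median HA change was 1.10, 0.94, 0.55 and -0.19 over extract and 0.79, 0.74, 0.72 and 0.17 in the IP alone. The Pk and HA extracts without a break share their uneven pattern, and its part in the over-extract order was not tested.

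The Pk libraries, 1 for each condition and without a test, moved the same way. All 59 windows that rose in HA were higher with the break in Pk, by 0.69 to 3.41 on the log2 scale (median 1.85), where 164 of all 196 windows were higher. The 30 windows that rose in the HA IP alone were all higher in the Pk IP too. At the valley 12 kb left the Pk over-extract level was 7.40 without and 54.1 with the break, and at the valley 4 kb right it was 6.30 and 49.9. The Pk IP alone went from 7.91 to 29.3 at the first of these valleys and from 8.32 to 11.9 at the second.

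**Figure D3:**
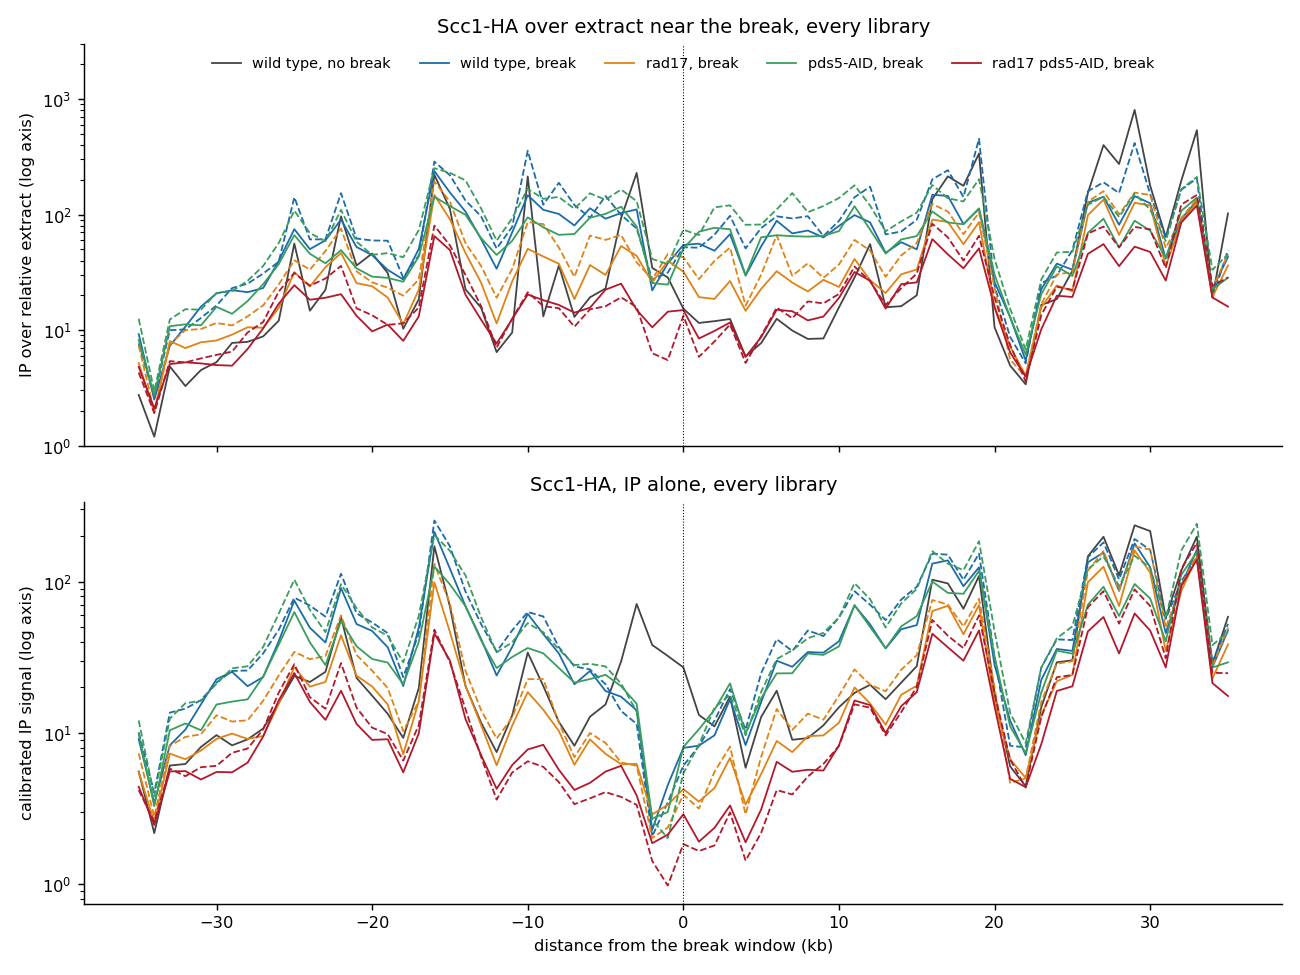
Over-extract level and IP alone of each HA library near the break (vertical axes, by distance in kb), 1 line per library. Wild type and pds5-AID libraries form the upper group over extract, at 49.4 to 93.3 in the valley 4 kb right, rad17 lies between at 21.5 and 31.8, and the double mutant lies with the library without a break at 8.36 to 8.91. These are absolute levels, not set against the genome level of each library.

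Loss of rad17 was compared with the wild type in strains that all carried the break. Scc1 was lower in rad17 over most of the stretch, and the calls gathered in blocks on both sides of the break. The over-extract level fell in 66 of 196 windows and rose in none (limma, adjusted p under 0.05), where 6.56% of all windows of the genome fell and 0.0172% rose, and 116 had an unadjusted p under 0.05. The median over the stretch was -0.75, against -0.44 over all windows. With the IP alone 67 fell and none rose, against 1.19% and 0.0344% of all windows.

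The blocks next to the break covered 21 windows between 90001 and 115000 on the left (5 to 29 kb) and 13 windows between 120001 and 133000 on the right (1 to 13 kb). Within 15 kb, 10 of 11 windows fell on the left and 13 of 16 on the right, with medians of -1.35 and -1.21. From 16 to 50 kb, 17 of 35 fell on the left (median -0.91) and 4 of 35 on the right (median -0.39). From 51 to 100 kb, 12 of 50 and 10 of 49 fell, with medians of -0.69 and -0.67.

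Of the 17 peaks 1 fell and of the 16 valleys 5 fell, where 2.53% of the peaks and valleys of the genome fell. By IP alone, 2 peaks and 5 valleys fell, against 0.53% and, for rises, 0.0408%. The valley 12 kb left had over-extract levels of 53.6 and 73.5 in the wild type and 20.4 and 28.8 in rad17, a fall of 1.37 ± 0.29 (limma adjusted p = 0.00084). At the peak 10 kb left the levels were 106 and 134 against 39.3 and 63.6 (-1.25 ± 0.29, limma adjusted p = 0.0032). At the valley 4 kb right they were 49.4 and 75.0 against 21.5 and 31.8 (-1.22 ± 0.29, limma adjusted p = 0.0040). The groups did not overlap at these 3 places, and over extract all 4 rad17 and wild-type libraries stood above the 9.82, 21.9 and 8.91 of the library without a break. In the IP alone the same falls were larger (-1.87, -1.62 and -1.50). There the rad17 IP lay around that of the library without a break at the valley 12 kb left (9.53 and 12.0 against 10.8). It lay below that library at the peak (14.7 and 19.4 against 22.5) and at the valley 4 kb right (5.19 and 6.00 against 12.0).

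Farther from the break the valley 18 kb left (100001 to 103000) was at 37.7 and 43.8 in the wild type and 17.9 and 23.6 in rad17 (-0.98 ± 0.29, limma adjusted p = 0.034). The valley 63 kb left (55001 to 58000) was at 17.1 and 19.1 against 7.19 and 9.51 (-1.13 ± 0.29, limma adjusted p = 0.011). The valley 59 kb right (177001 to 180000) was at 15.5 and 23.5 against 8.14 and 12.1 (-0.94 ± 0.29, limma adjusted p = 0.044). At these 3 valleys the absolute level of rad17 was close to that of the library without a break (17.7, 7.97 and 11.4). This comparison was not tested, and genome levels were not taken into account. The IP alone differed by -1.38, -1.13 and -0.85, and the last of these did not pass (limma adjusted p = 0.12).

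The largest single fall on the left was in the window 7 kb left (112001 to 113000), from 80.5 and 121 to 18.5 and 28.9 (-1.99 ± 0.32, limma adjusted p = 9.1e-07). On the right it was in the window 12 kb right (131001 to 132000), from 85.6 and 174 to 27.0 and 48.8 (-1.72 ± 0.32, limma adjusted p = 6.5e-05). Of the 66 windows 65 were lower in rad17 in the Pk pair too, where 176 of all 196 were lower. At the valley 12 kb left Pk stood at 54.1 in the wild type and 18.9 in rad17, and at the valley 4 kb right at 49.9 and 18.3.

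The count for rad17 depended on the overall level of the libraries and on single libraries. Relative to each library's own genome median 1 window fell, 7 kb left, against 0.0601% of all windows, with 67 at an unadjusted p under 0.05 and no rise, against 0.112%. Of the peaks and valleys 1 valley, 12 kb left, fell on that scale and none rose, against 0.122% and 0.449%. The 66 became 1 without wild-type replicate 2, 2 without rad17 replicate 1 and 29 without rad17 replicate 2, and the 67 of the IP alone became 15, 16 and 41 without them, 34 without wild-type replicate 1 and 121 without either pds5-AID library.

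In pds5-AID with the break, Scc1 over extract was lower than in the wild type at 9 of the 17 peaks. It was also lower at 1 of the 16 valleys. Peaks and valleys together, this share was below the 55.3% of the genome's peaks and valleys that fell. Over extract 2 windows rose and 26 fell, against 0.0258% and 34.9% of all windows (limma, adjusted p under 0.05), so the share of falls in the stretch was below that of the genome. Its median change was -0.25, against -0.56 over all windows. With the IP alone 1 rose and 23 fell, against 0.0516% and 41.3%. Relative to each library's own median the split turned: 60 windows rose and 6 fell, against 8.52% and 13.4% of all windows, with a median of 0.33 against 0.02.

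Of the 17 peaks 9 fell and none rose, and of the 16 valleys 1 fell and 1 rose, where 55.3% of the peaks and valleys of the genome fell and 0.0408% rose. The genome shares were not split by kind, so peaks and valleys of the stretch have no separate share to be set against. Without the extract, 7 peaks fell and 1 valley rose, where 60.1% fell. The peak 57 kb left (61001 to 64000) had over-extract levels of 66.4 and 103 in the wild type and 24.5 and 42.2 in pds5-AID, the largest fall among the peaks (-1.36 ± 0.29, limma adjusted p = 1.7e-05). The single window of largest fall on the left lay in it, at 62001 to 63000, with 127 and 242 against 38.6 and 75.8 (-1.65 ± 0.32, limma adjusted p = 6.6e-06). The groups did not overlap at this peak, and its IP alone fell too (-1.10).

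At 39 kb right (157001 to 160000) the peak stood at 76.7 and 80.3 in the wild type and at 33.3 and 51.04 in pds5-AID (-0.93 ± 0.29, limma adjusted p = 0.0037). At 70 kb right (188001 to 191000) it was 113 and 118 against 56.1 and 79.4 (-0.79 ± 0.29, limma adjusted p = 0.014). The peaks 90 and 83 kb left and 29, 88, 47 and 99 kb right fell by 0.65 to 0.77 with limma adjusted p between 0.016 and 0.042. Of the 9 peaks, those 83 kb left and 29 and 47 kb right did not pass in the IP alone. Over extract the peaks at 29 and 47 kb right overlapped between the groups, with 118 and 207 against 70.6 and 119 at 29 kb. On the right the window of largest fall was 55 kb right (174001 to 175000), with 25.1 and 35.6 against 7.71 and 15.5 (-1.42 ± 0.32, limma adjusted p = 0.00012).

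Among the valleys 1 rose and 1 fell. The valley 86 kb left (32001 to 35000) was at 11.1 and 12.4 in the wild type and at 13.96 and 23.7 in pds5-AID (0.63 ± 0.29, limma adjusted p = 0.049). The valley 59 kb right was at 15.5 and 23.5 against 9.73 and 15.6 (-0.64 ± 0.29, limma adjusted p = 0.048), with groups that overlapped, and did not pass in the IP alone (-0.47). The window of largest rise, 78 kb left (41001 to 42000), was at 7.53 and 7.40 against 12.9 and 16.002 (0.86 ± 0.32, limma adjusted p = 0.025). Median changes were 0.16 at valleys and -0.65 at peaks. Relative to each library's own median 12 of 16 valleys rose and none fell, and 2 of 17 peaks rose and 2 fell, against 12.3% and 31.8% of the peaks and valleys of the genome. The median peak over the median valley was 3.50 and 3.69 in pds5-AID, below the 4.83 and 5.10 of the wild type.

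Within 15 kb of the break 1 window fell on the left, none was called on the right, and the medians were -0.02 and 0.20. The valley 12 kb left was at 53.6 and 73.5 in the wild type and at 55.6 and 87.2 in pds5-AID (0.15 ± 0.29, limma adjusted p = 0.66). The valley 4 kb right was at 49.4 and 75.0 against 54.5 and 93.3 (0.23 ± 0.29, limma adjusted p = 0.49), and the peak 10 kb left at 106 and 134 against 75.1 and 128 (-0.28 ± 0.29, limma adjusted p = 0.41). The groups overlapped at all 3, and an SE of 0.29 leaves room for moderate changes either way. Relative to the library medians 13 windows between 119001 and 135000 rose on the right. The tallest of the 17 peaks over extract was in pds5-AID the peak 16 kb left, at 100.1 and 183, while in the IP alone the peak 33 kb right came first, at 98.4 and 146.7, against 87.4 and 140.9 at the peak 16 kb left. Left-out libraries moved the 28 to 5 (wild-type replicate 2), 6 (pds5-AID replicate 1) and 63 (pds5-AID replicate 2), and the 24 of the IP alone became 6, 7 and 87 without them and 15 without wild-type replicate 1.

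**Figure D4:**
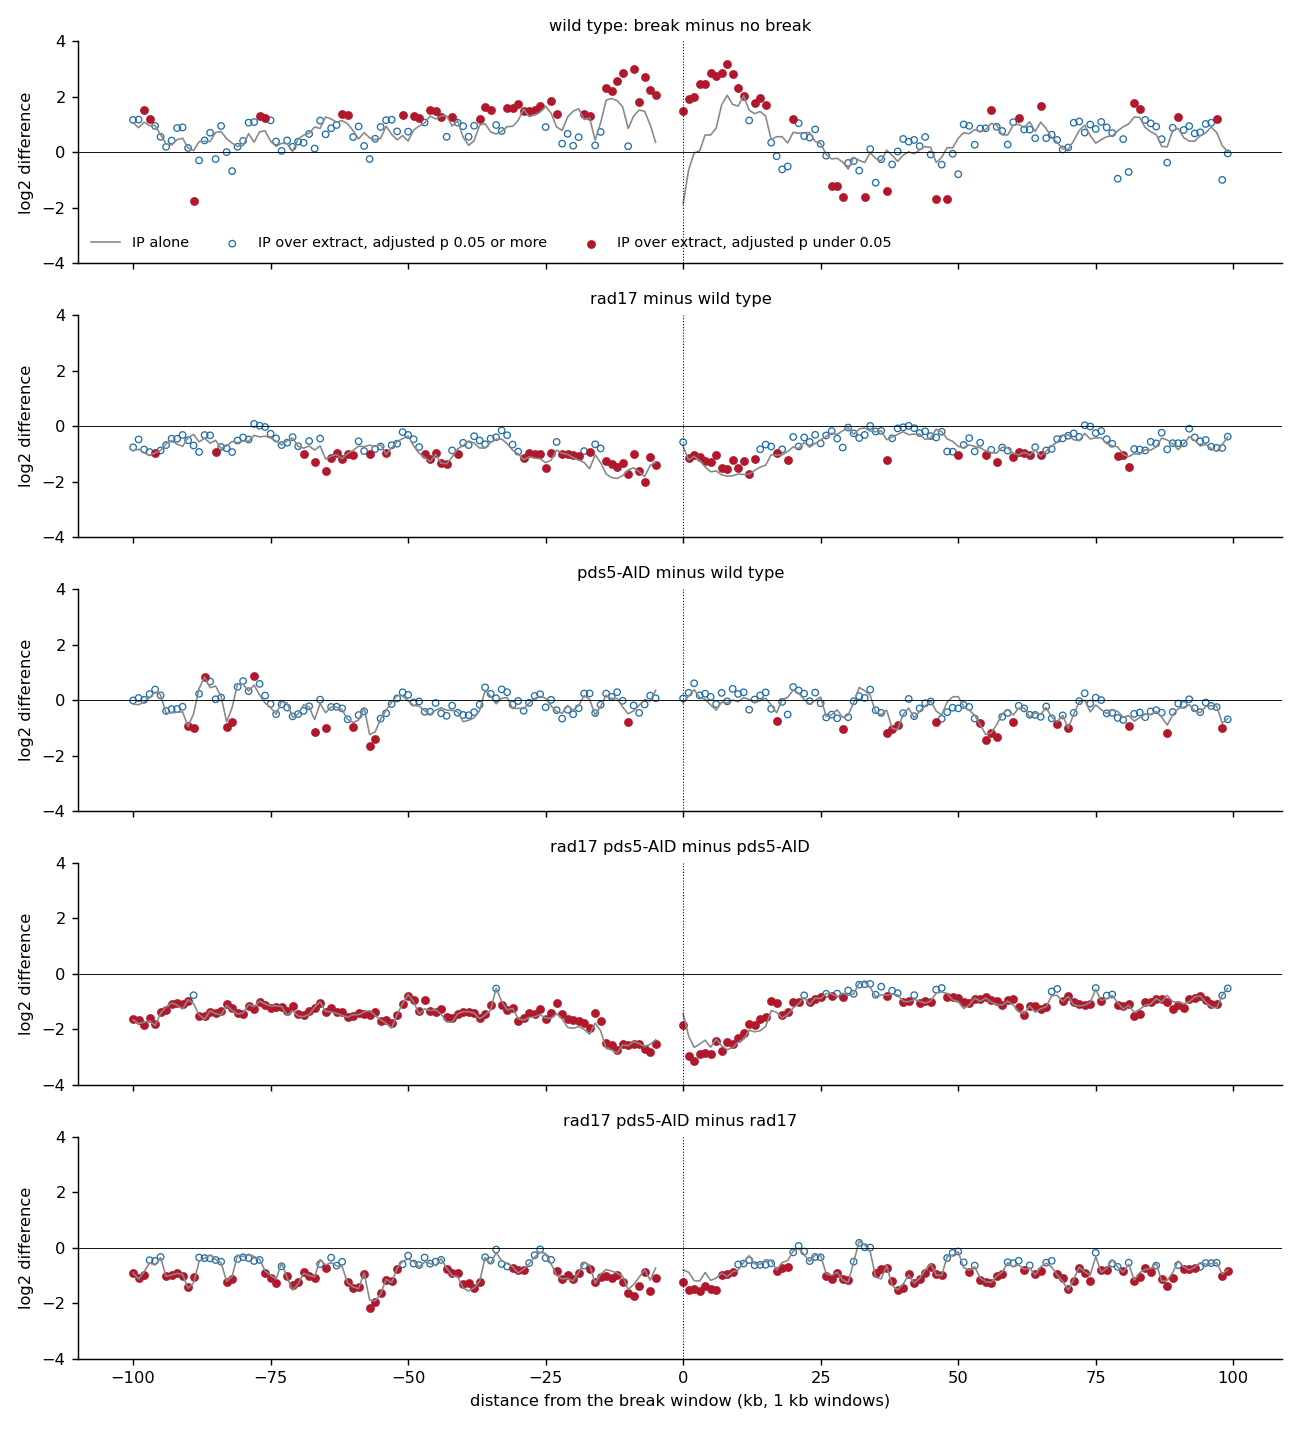
Log2 differences in the over-extract level (vertical axes) of the tested windows by distance from the break window in kb, 1 panel per comparison. The double mutant against pds5-AID falls to about -3 next to the break and stays below 0 in every window, while pds5-AID against the wild type lies near 0 next to the break.

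The rad17 pds5-AID strain was compared with pds5-AID to follow the loss of rad17 in strains that carry the pds5-AID allele. Scc1 was lower in nearly every window of the stretch, most of all next to the break. The over-extract level fell in 172 of 196 windows and rose in none, where 28.1% of all windows fell (limma, adjusted p under 0.05), and all 196 differences were below 0. The stretch had a median change of -1.22, against -0.67 over all windows. With the IP alone 190 fell, against 66.7% of all windows. Relative to library medians 34 fell and none rose, against 0.327% and 0.0344% of all windows, and these included blocks of 14 windows from 5 to 21 kb left and of 13 windows from 0 to 13 kb right.

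Within 15 kb all 11 tested windows on the left and all 16 on the right fell, with medians of -2.54 and -2.44. The valley 4 kb right was at 54.5 and 93.3 in pds5-AID and at 8.61 and 8.36 in the double mutant, the largest fall of all 33 peaks and valleys (-3.07 ± 0.29, limma adjusted p = 2.8e-23). The valley 12 kb left was at 55.6 and 87.2 against 10.7 and 11.6 (-2.64 ± 0.29, limma adjusted p = 4.7e-17). The peak 10 kb left was at 75.1 and 128 against 16.6 and 16.1 (-2.58 ± 0.29, limma adjusted p = 1.9e-16). At these places the double mutant stood at or near the absolute over-extract level of the wild type without a break (8.91, 9.82 and 21.9), which was not tested. The genome level of the double mutant was lower, at 3.13 and 3.71 times that of the untagged library, against 7.63 times without a break. The match therefore holds for absolute levels only. The IP alone of the double mutant stood below: 2.78 and 2.20 at the valley 4 kb right against 12.0 without a break, with the untagged library at 0.643.

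The single windows of largest fall were 6 kb left (113001 to 114000), from 93.9 and 153 to 15.6 and 15.1 (-2.82 ± 0.32, limma adjusted p = 1.4e-15), and 2 kb right (121001 to 122000), from 76.8 and 115 to 9.83 and 7.97 (-3.12 ± 0.32, limma adjusted p = 1.3e-18). Both are among the 7 windows that passed the extract limit only through the library without a break, which this comparison does not use, and all 7 count among the 172. Outside the 15 kb, the valley 18 kb left was at 32.7 and 54.4 against 10.9 and 12.7 (-1.84 ± 0.29, limma adjusted p = 7.9e-08) and the peak 16 kb left at 100.1 and 183 against 41.4 and 47.7 (-1.61 ± 0.29, limma adjusted p = 6.2e-06). The most distant valley on the left, 97 kb, was at 20.4 and 28.4 against 6.10 and 7.86 (-1.80 ± 0.29, limma adjusted p = 1.9e-07). On the left 94 of 96 windows from 5 to 100 kb fell. On the right all 16 fell to 15 kb, 20 of 35 from 16 to 50 kb and 42 of 49 from 51 to 100 kb, and in the IP alone 32 of 35 and 47 of 49 fell in the last 2 of these ranges.

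On the right the peak 19 kb right (137001 to 140000) was at 74.8 and 118 against 33.5 and 41.2 (-1.34 ± 0.29, limma adjusted p = 0.00046). The valleys 73, 96 and 59 kb right fell by 1.14, 1.06 and 1.00 with limma adjusted p of 0.0059, 0.012 and 0.019. In all, 15 of 17 peaks and 15 of 16 valleys fell, where 56.4% of the peaks and valleys of the genome fell. The IP alone gave 16 and 15, against 75.9%, and relative to library medians 3 peaks and 5 valleys fell and none rose, against 0.408% and 0.0816%. The 3 that did not pass lay 33, 34 and 47 kb right, with a peak and a valley that fell at 39 and 41 kb between them. They were the peak 33 kb right at 88.0 and 135 against 75.3 and 100.5 (-0.33 ± 0.29, limma adjusted p = 0.26), its shoulder at 34 kb (-0.34 ± 0.29, limma adjusted p = 0.24) and the peak 47 kb right at 79.8 and 140.3 against 59.7 and 78.5 (-0.63 ± 0.29, limma adjusted p = 0.050). The 172 became 39 without pds5-AID replicate 2, 40 without double mutant replicate 1 and 110 without double mutant replicate 2, and the 190 of the IP alone became 86 without double mutant replicate 1 and 91 without pds5-AID replicate 2.

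Against rad17, the double mutant had lower Scc1 at 16 of the 17 peaks and 9 of the 16 valleys, a joint share of 25 in 33 that is not above that of the genome. The over-extract level fell in 121 of 196 windows and rose in none, where 59.4% of all windows fell (limma, adjusted p under 0.05), so the share was near that of the genome. Here the median change was -0.84, against -0.78 over all windows. With the IP alone 135 fell, against 70.9% of all windows. Relative to library medians 8 rose and 17 fell, against 3.48% and 11.9% of all windows.

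Of the 17 peaks 16 fell and of the 16 valleys 9 fell, where 81.6% of the peaks and valleys of the genome fell. That share was not split by kind, so neither count has a genome share of its own. The IP alone gave 15 and 10, against 85.3%, and relative to library medians 9 peaks and 2 valleys fell and 1 peak and 4 valleys rose, against 32.9% and 6.16%. The peak 57 kb left was at 43.5 and 46.5 in rad17 and at 10.7 and 13.2 in the double mutant, the largest fall (-1.92 ± 0.29, limma adjusted p = 7.9e-10), and its middle window fell by 2.16. The valley 4 kb right was at 21.5 and 31.8 against 8.61 and 8.36 (-1.62 ± 0.29, limma adjusted p = 1.7e-07). The peak 10 kb left was at 39.3 and 63.6 against 16.6 and 16.1 (-1.61 ± 0.29, limma adjusted p = 2.2e-07). None of these groups overlapped, and the IP alone fell at all 3 (-1.81, -1.17 and -1.34).

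Other falls ranged over both sides of the break. The peaks 39, 71 and 90 kb left fell by 1.35, 1.28 and 1.25, and the peaks 39, 70 and 88 kb right and the valley 41 kb right by 1.43, 1.35, 1.26 and 1.26, with limma adjusted p between 3.9e-06 and 4.7e-05. At 39 kb right, for example, rad17 was at 60.9 and 75.1 and the double mutant at 21.5 and 29.3. Next to the break 18 windows from 5 to 23 kb left and 10 from 0 to 9 kb right fell in a block, with the largest window on the right 3 kb away (26.6 and 51.7 against 11.6 and 11.2, -1.57 ± 0.32, limma adjusted p = 1.1e-05).

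The peak 33 kb right again stood out as the 1 peak that did not fall, at 76.6 and 82.3 in rad17 and 75.3 and 100.5 in the double mutant (0.13 ± 0.29, limma adjusted p = 0.65). It was the tallest of the 17 peaks in the double mutant, where the peaks at 47 and 29 kb right came next with 59.7 and 78.5, and 45.9 and 68.4. The 121 became 33 without rad17 replicate 2 and 41 without double mutant replicate 1, and the 135 of the IP alone 59 and 72.

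The untagged library has its own signal at that peak. In the window 33 kb right (152001 to 153000) the untagged over-extract level was 32.6, which is 16.4 times its genome level, and its IP was 35.6, while the windows on either side stood at 2.61 and 1.28 over extract. That IP amounts to 25.4% and 19.7% of the IP in the double mutant, and to 14.7% to 24.4% in the other HA libraries. In that window the HA IP ranged from 139.9 in double mutant replicate 1 to 241 in pds5-AID replicate 2, with 163 and 145 in the wild type. A part of the level at the peak and shoulder 33 and 34 kb right is therefore also precipitated without a tag, and the part of this signal in their missing falls was not tested.

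**Figure D5:**
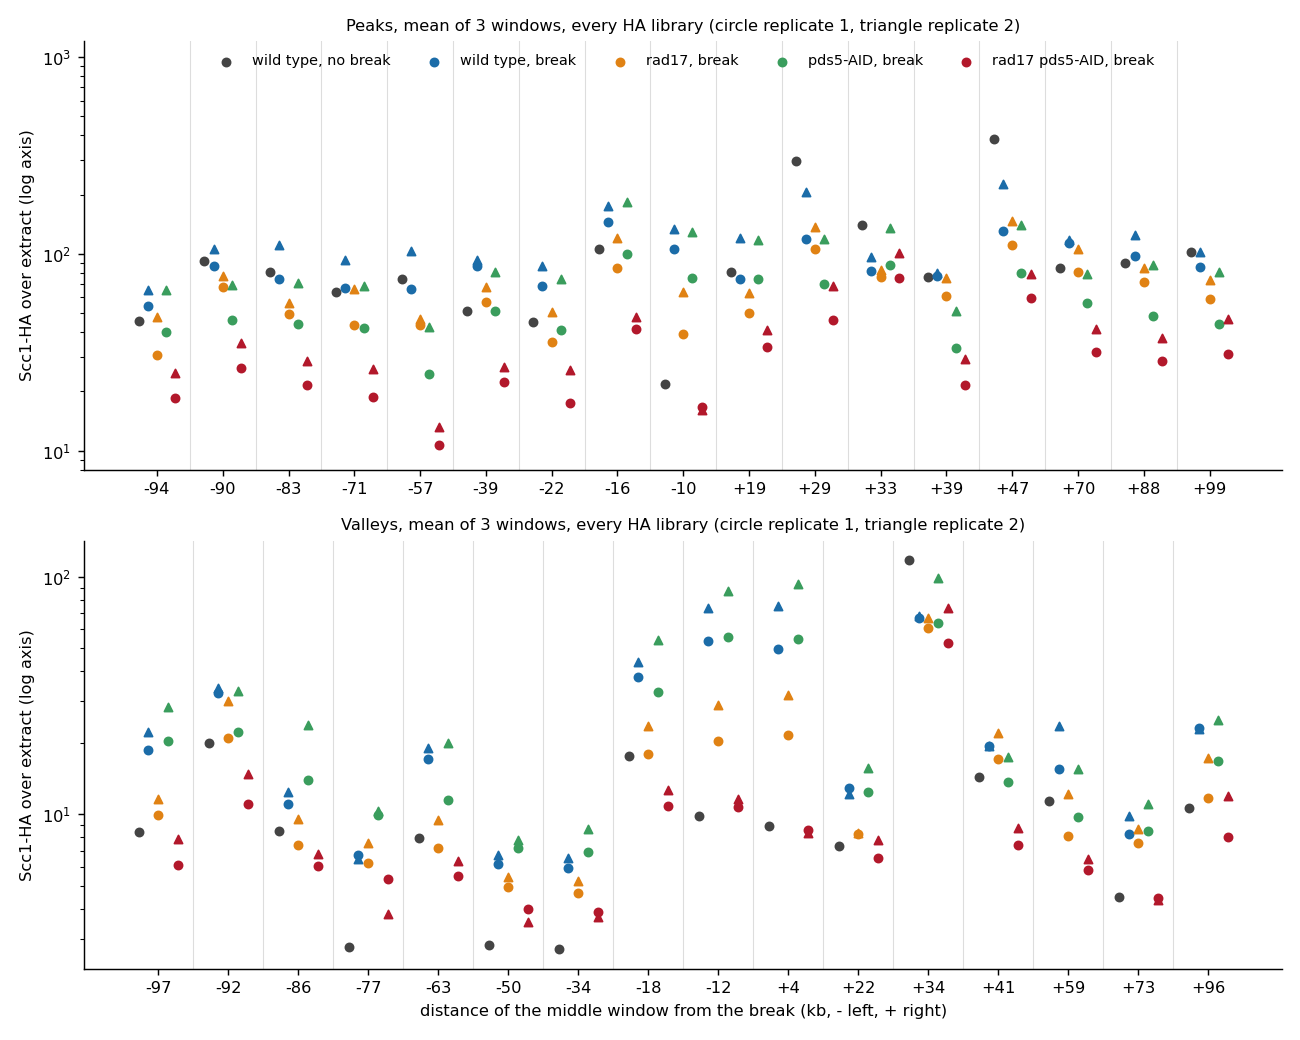
Over-extract level of each of the 17 peaks and 16 valleys in every HA library (vertical log axis), ordered by distance from the break window in kb, 1 symbol per library. The double mutant is lowest of the 4 genotypes with a break at most peaks and valleys, and reaches the others at 33 kb right, where it stands at 75.3 and 100.5.

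The interaction asks whether the loss of rad17 changes Scc1 by a different amount in pds5-AID than in the wild type. Over extract 1 of 196 windows passed, where 0.0172% of all windows passed with a fall, and 41 had an unadjusted p under 0.05 (limma). It lies 2 kb right (121001 to 122000), where the levels were 48.6 and 66.9 in the wild type, 18.6 and 39.7 in rad17, 76.8 and 115 in pds5-AID and 9.83 and 7.97 in the double mutant, an interaction of -2.08 ± 0.45 (limma adjusted p = 0.022). This window passed the extract limit only through the library without a break, which the interaction does not use. Of the peaks and valleys the valley 4 kb right passed (-1.85 ± 0.41, limma adjusted p = 0.012), with a fall of 1.22 in the wild type and of 3.07 in pds5-AID, and 2 of its 3 windows passed the limit in the same way. In the IP alone neither passed (-1.56 and -1.16, limma adjusted p = 0.15 and 0.94), and none of the 196 windows did, with 41 at an unadjusted p under 0.05, where 0.00859% of all windows passed with a rise and 0.0344% with a fall. Among the peaks and valleys of the genome 0.0408% passed over extract. The median interaction over the stretch was -0.57, against -0.23 over all windows.

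Without nocodazole the Pk wild type with the break had a coarse signal, with a genome median IP of 14.9 made of 2.41 steps, and its values are given without a test. Next to the break its levels were those of the arrested culture or above: 65.5 at the valley 12 kb left and 70.8 at the valley 4 kb right, against 54.1 and 49.9 with nocodazole. The cluster on the right was lower in part: 40.6 against 90.8 at 29 kb right and 31.5 against 52.5 at 33 kb right, while at 47 kb right the levels were 108 and 119. On the left the peak 16 kb away stood at 124 and 120.0. The 21-window running mean of its IP had its maximum on chromosome 5 at 20 kb right, against 37 kb right in the arrested Pk wild type. Over extract these maxima lay close together, 6 kb left without nocodazole and 7 kb left with it.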

How the data were processed

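Scc1 ChIP-seq of 14 IP and 14 extract libraries was used as deposited: coverage signal in 12447 windows of 1 kb on 16 chromosomes, calibrated by the authors with Candida glabrata per the series design. The submitters' processing notes name Bowtie2, SAMtools, bedtools and MACS2, with roles and versions not given in the sources used here. Extract coverage was divided by its own genome median. Each window's value was log2((IP + 5% of the library median) / (relative extract + 5%)), or the IP term alone. Printed levels carry no pseudocount. The tested windows (11638) were those in which the relative extract, averaged over the 9 HA samples, lay between 0.25 and 4. Peaks and valleys were extremes of at least 1 log2 unit of prominence, at least 4 windows apart, taken with 1 window on each side, and valued as log2 of mean IP over mean relative extract.

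The 5 HA groups were fitted together with limma 3.58.1 in R 4.3.3 (Python 3.11.15 and SciPy 1.17.1 for the rest), with adjusted p by Benjamini-Hochberg over all windows or over all 2452 peaks and valleys, threshold 0.05. The moderated spread was the same for all windows. Groups of 1 library were not tested among themselves. The single HA library without a break takes its spread from the remaining HA groups. The genotypes were not checked from the data, since no gene was placed.

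Named were, in each comparison, up to 5 called peaks or valleys a side with the largest change, the window of largest rise and fall a side, and the blocks next to the break. The windows, lists and comparisons were chosen with earlier results of these data known. Alternatives tried were the IP alone, centring on library medians, other pseudocounts, no filter, the extract as deposited, no moderation, a replicate block and leaving out each library. Added after seeing the data were an extract smoothed over 11 windows, a spread with a trend on level, and further fits of the IP alone. The fit was tested on simulated data. The number of reads behind the extracts is unknown, since their values are coverage signal and not counts.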

Additional observations from a re-analysis of the deposited data

Results flagged for a closer look

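Places where the effect of rad17 differed between the wild type and pds5-AID by the interaction test were the valley 4 kb right of the break (122001 to 125000), with an interaction of -1.85, and the window 2 kb right (121001 to 122000), with -2.08. Both lie where the extract is thinnest, with a relative extract of 0.165 to 0.323 in the HA libraries with a break at the valley, and neither passed in the IP alone. The window 2 kb right, and 2 of the 3 windows of the valley, passed the limit on extract only through the library without a break, which the interaction does not use. The part of the thin extract was not tested.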

How the results depend on the processing

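Counts are of tested windows past the threshold (limma), in the order break, rad17, pds5-AID, double mutant against pds5-AID, double mutant against rad17, interaction: 67, 66, 28, 172, 121 and 1. The first 5 stayed within 1.5 times under no filter, pseudocounts of 1% and 20% and the smoothed extract. The interaction was 2, 0 and 2 with a pseudocount of 1%, one of 20% and the smoothed extract. With the IP alone the break count was 31 and the interaction 0. Centred on library medians the counts were 112, 1, 66, 34, 25 and 0, and for the centred IP alone 42, 31, 73, 76, 54 and 0. With the extract as deposited, which puts its depth into the ratio, they were 10, 0, 0, 21, 40 and 0. With each window's own spread over 4 residual degrees of freedom they were 0, 0, 0, 0, 10 and 0 (86, 61, 17 and 148 of the first 4 at an unadjusted p under 0.05), and for the IP alone 0, 0, 0, 0, 14 and 0. A spread with a trend on level gave 39 for rad17, 16 for pds5-AID and 0 for the interaction, and for the IP alone 14, 43 and 14 for the first 3, of 31, 67 and 24.

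The labels do not say that a replicate number marks a shared batch or day, so the numbers were not taken to pair the samples. The bracketed codes in the titles run in 2 series, 1 for each number, with the HA library without a break in the series of replicate 2, and the genome level was higher in replicate 2 in all 4 groups. The correlation of same-numbered deviations was 0.0844 to 0.341. With the replicate as a block the counts were 133 for rad17, 70 for pds5-AID, 193 and 165 for the double mutant and 7 for the interaction, for which 11 of the 33 peaks and valleys passed. The HA library without a break has no number, so the break comparison had no such fit.

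Leaving out 1 library at a time gave 29 to 88 for the break (29 without wild-type replicate 1), 1 to 91 for rad17, 5 to 63 for pds5-AID, 39 to 190 and 33 to 134 for the double mutant against pds5-AID and rad17, and 0 to 5 for the interaction, which was 5 without pds5-AID replicate 1 and 0 without wild-type replicate 1, rad17 replicate 2, pds5-AID replicate 2 or either double mutant library. For the IP alone these ranges were 2 to 45 (2 without wild-type replicate 2, 18 without replicate 1), 15 to 121, 6 to 87, 86 to 196, 59 to 158 and 0 to 1. Of peaks and valleys over all comparisons 78 passed, 38 to 90 with 1 library left out, 18 with the extract as deposited, 10 and 13 with own spread over extract and in the IP alone, and 121 with a prominence of 0.5.

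Values that changed sign were those of the break at 89 kb left, 0.064 in the IP alone and 0.21 with the smoothed extract, and at 48 kb right, 0.18 in the IP alone, and those of pds5-AID in the centred IP alone at the peaks 83 kb left (0.093), 29 kb right (0.014) and 47 kb right (0.14). The cause was not tested. Within about 10 kb of the break the depth of the extract limits every level over extract, and in the Pk library without nocodazole 2.41 steps per window limit the rest.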
